A study of Mus musculus with 11 samples.

Results

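The genes described here are those of the cytosolic ribosomal proteins, the proteins of the ribosome that translates nuclear messages. They were chosen by symbol alone: every gene of the deposited table whose symbol begins with Rpl or Rps and continues with a number, the letter a or a P-stalk name, with the S6 kinases (Rps6k) and rows named as pseudogenes (-ps) left out. The rule took 91 of 18269 genes. Of these, 43 encode core proteins of the large subunit, 3 the P stalk of that subunit (Rplp0, Rplp1 and Rplp2) and 31 proteins of the small subunit. Another 13 are paralogues or copies of those genes (among them Rpl3l, Rpl22l1, Rpl36al and Rps27l), and Rps19bp1 is a nucleolar partner protein that the symbol rule also takes. The annotation calls 85 of the 91 protein-coding. The members lie on 19 chromosomes, 15 of them on chromosome 7.

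RNA was measured by sequencing in 11 libraries of the tibialis anterior, a shin muscle made mostly of fast fibres. All came from C57BL/6 mice aged 21 to 24 months in an injury model. 3 libraries followed injection of young serum depleted of extracellular vesicles (EVs, the membrane-bound particles cells shed; replicates 2, 3 and 4), 4 followed young serum (replicates 1 to 4) and 4 followed saline (replicates 2, 3, 4 and 6). The labels give no genetic change, dose, interval after injury or sex, and do not say that each library is a separate mouse, so p-values measure the spread between libraries, which may be technical.

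Ribosomal proteins and ribosomal RNA are needed in fixed proportions, and the genes of these proteins are regulated largely as a group. Their messages start with a run of pyrimidines at the cap (the TOP motif), through which the kinase mTORC1 and the cap-binding protein LARP1 control their translation. The coding sequences are short, and reverse-transcribed copies of them are scattered over mammalian genomes. Striated muscle also makes a tissue-specific paralogue, RPL3L, which can replace RPL3 in the ribosome.

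Depth, read from the step that 1 read makes in low CPM values (each gene's reads scaled to a fixed library total), was 36.4M to 42.3M reads (M, mega) per library. Muscle markers were high in every library: the 8 fast fibre genes summed to 141260 to 162131 CPM in EV-depleted serum, 155144 to 173863 CPM in young serum and 143004 to 193460 CPM in saline. Myf5 was the only marker of any list under 1 CPM throughout. Saline replicate 6 stood apart before any test. Its 8 slow fibre genes summed to 5545 CPM, against 256 to 477 CPM in the other 3 saline libraries (1420 to 2229 CPM in EV-depleted serum and 242 to 1652 CPM in young serum), and its 5 red cell genes to 1488 CPM, against 191 to 468 CPM. Saline replicate 4 held 6134 CPM of the 8 adipocyte genes, against 376 to 625 CPM in saline replicates 2, 3 and 6. The 9 lymphocyte markers summed to less in every serum library than in any saline library: 126 to 149 CPM in EV-depleted serum and 143 to 190.1 CPM in young serum, against 251 to 606 CPM in saline. Only 4 of these 9 reached 1 CPM in 3 or more libraries. The 10 macrophage markers summed to 72.9 to 125 CPM in EV-depleted serum and 53.9 to 159 CPM in young serum, against 128 to 339 CPM in saline. The part of these cell types in the ribosomal protein values was not tested, and in bulk tissue fewer cells of a type and less RNA per cell cannot be told apart.

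Sequence around the starts was searched for short words that the rule did not use, and each was found in a minority of the members. RefSeq start regions (assembly GRCm38.p6, 250 bases before to 50 after a start) matched 67 of the 91 members by symbol. In the window from 20 bases before to 30 after a start, CTTTCC or CTCTTT stood on the transcribed strand in 20 of the 67 (29.9%), against 4.62% of 27025 genes. CTTTCC was there in 13 and CTCTTT in 11, and the words can overlap, as in CTCTTTCC. The motif CCGGAAG, the core bound by ETS factors, stood on either strand of the 300-base region in 26 of 67 (38.8%), against 9.93% of all genes. Below, 30 bases before the start and 15 after it are printed for genes that recur in the results, with CTTTCC and CTCTTT in capitals.
Rpl35 (chr2:39005117-39005161, - strand): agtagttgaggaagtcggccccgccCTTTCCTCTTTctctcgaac
Rps9 (chr7:3704011-3704055, + strand): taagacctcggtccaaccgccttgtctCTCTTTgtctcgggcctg
Rpl28 (chr7:4792935-4792979, + strand): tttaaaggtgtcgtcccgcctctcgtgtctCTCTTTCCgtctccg
Rps18 (chr17:33955651-33955695, - strand): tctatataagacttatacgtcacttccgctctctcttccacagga
Rplp2 (chr7:141447621-141447665, + strand): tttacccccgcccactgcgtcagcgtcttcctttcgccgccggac
Rpl22l1 (chr3:28805478-28805522, + strand): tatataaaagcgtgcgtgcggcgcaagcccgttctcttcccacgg
Rpl3l (chr17:24727796-24727840, + strand): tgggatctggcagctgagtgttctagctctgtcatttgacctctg
Rpl35, Rps9 and Rpl28 carry at least one of the words within a pyrimidine run at the start. Rps18, Rplp2 and Rpl22l1 have pyrimidine runs that spell neither word. Rpl3l has neither word in the bases printed. In young serum against saline, members with one of the words had a median log2 fold change of -0.65 (19 tested) and members without one of -0.62 (46 tested).

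The level read for a single ribosomal protein gene was lower, by group medians, where genes have more near copies in the genome. Counting annotated transcripts that match a member's coding sequence at 95% identity or more over at least 80% of its length, 79 of the 91 members had at least 1 near-identical copy. The median was 4 and the largest number 57, for Rpl21. Among protein-coding members, the 10 with no copy had a median of 109 CPM per exonic kb. The median was 51.2 CPM per exonic kb for the 32 with 1 to 4 copies, 22.3 for the 26 with 5 to 9 and 10.4 for the 17 with 10 or more. The first 60 coding bases of Rps27 and its relatives are printed as an example of rows that share sequence (GENCODE M21 transcripts, mm10; bases that differ from Rps27 in capitals).
Rps27 (chromosome 3): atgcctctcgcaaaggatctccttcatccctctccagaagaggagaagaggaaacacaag
Rps27rt (chromosome 9): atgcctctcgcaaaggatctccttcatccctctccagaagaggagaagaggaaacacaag
Rps27l (chromosome 9): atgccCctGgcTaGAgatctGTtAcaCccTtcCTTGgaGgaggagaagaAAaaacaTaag
Rps27rt is identical to Rps27 over all 252 coding bases, while Rps27l, a paralogue known as a p53 target, is identical at 189 of 315 aligned positions, gaps included. Rps27 had 1.17, 3.12 and 0.796 CPM in EV-depleted serum, 2.63, 2.93, 1.96 and 1.17 in young serum, against 0.770, 1.87, 2.52 and 5.43 in saline. Rps27rt had 97.0, 148 and 138 CPM in EV-depleted serum, 126, 109, 116 and 99.0 in young serum, against 108, 161, 213 and 517 in saline. By row, then, nearly all the signal of the RPS27 coding sequence sat on the copy.

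Adding to each member the rows of the table that are near-identical to it gave 85 families with 248 rows, 157 of them outside the symbol rule. In 22 families the named gene held under 10% of the family's CPM, and in 41 under 50%. Rps6, whose protein is the ribosomal substrate of the S6 kinases, averaged 8.79 CPM by its own row and 253 CPM as a family. Rpl10, the protein that completes the large subunit, averaged 3.68 CPM alone and 316 CPM as a family. Rpl17 averaged 0.728 CPM alone, below the filter, and 281 CPM as a family. Across families led by a core protein, levels per coding kb ran from 1.32 to 2218 CPM by named row (SD of log2 values 2.41) and from 47.1 to 2218 CPM by family sum (SD 0.73). The highest per coding kb was Rpl41, the shortest ribosomal protein, and the lowest family was that of Rpl3. The top rank depends on the length used. Per exonic kb, members with no copy, Rpl41 among them, reached at most 271 CPM, and those with 1 to 4 copies up to 725 CPM. Between 1 and 30 CPM, 13.0 to 32.4% of members' values per library were whole multiples of 1 read within 0.1 reads, against 48.7 to 64.7% for other named genes. The sets were not matched by level within that range, and the cause of the difference was not tested. Results are given by named row and, where it matters, by family.

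**Figure D1:**
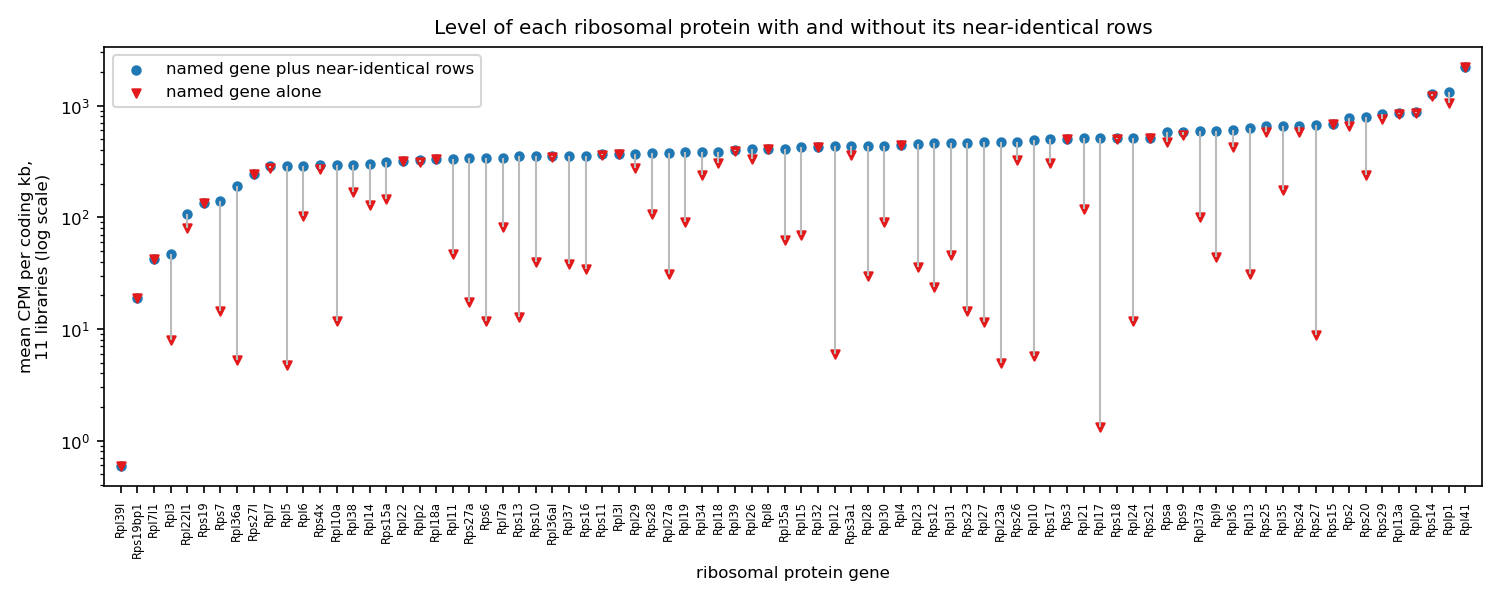
Mean CPM per kb of coding sequence over the 11 libraries (log axis) for the ribosomal protein genes shown, each with an annotated coding length, by its own row (triangles) and summed with the near-identical rows (circles); grey lines join the pair. Long lines mark genes such as Rpl17 (0.728 CPM alone and 281 CPM as a family, before division by length), and most circles lie in a much narrower band than the triangles.

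Rpl3l, the muscle paralogue, was among the highest single rows of the whole group. It had 481, 477 and 417 CPM in EV-depleted serum, 425, 435, 437 and 391 in young serum, against 460.2, 491, 416 and 476 in saline, and the groups overlapped. Rpl3 had 7.01, 9.23 and 6.13 CPM in EV-depleted serum, 11.5, 10.5, 8.42 and 5.23 in young serum, against 6.80, 8.45, 19.3 and 12.5 in saline. With its near-identical row added, Rpl3 averaged 57.0 CPM, against 446 CPM for Rpl3l. The coding sequences are of similar length, 1221 bases for Rpl3l and 1209 for Rpl3, and are identical at 894 of 1224 aligned positions, gaps included. The CPM values therefore need no length correction. However, most near-identical copies of Rpl3 have no row in the table, while Rpl3l has no such copy. How reads shared with copies were counted is not given, so the level of Rpl3 relative to Rpl3l is uncertain. The starts of both are set side by side, with bases of Rpl3l that differ from Rpl3 in capitals.
Rpl3 (chromosome 15): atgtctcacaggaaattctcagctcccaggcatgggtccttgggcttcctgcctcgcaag
Rpl3l (chromosome 17): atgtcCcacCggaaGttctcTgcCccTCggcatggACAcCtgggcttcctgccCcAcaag
Rpl3l lies at chr17:24727820-24736143 on the plus strand of mm10 and Rpl3 at chr15:80077791-80091868 on the minus strand. With an SD of 0.11 on the log2 scale over all 11 libraries, Rpl3l varied about as little as the steadiest core member, Rpl4 (0.11), which lines the exit tunnel of the large subunit. Rpl6 and Rpl7, also of the large subunit, came next among core members, with SDs of 0.21 and 0.22.

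Taken as a group, the members took 8823, 11934 and 8241 CPM of the library in EV-depleted serum, 9227, 8335, 9352 and 8124 CPM in young serum, against 9494, 11872, 13066 and 27558 CPM in saline. That is 0.824 to 1.19% of all reads in EV-depleted serum, 0.812 to 0.935% in young serum and 0.949 to 2.76% in saline. Every young serum library was below every saline library, while EV-depleted serum replicate 3 lay within the saline range. The mean level, the average over the 88 members that reached 1 CPM in 3 or more libraries (the filter for testing) of log2(CPM + 1) minus each gene's mean, was -0.28, 0.29 and -0.46 in EV-depleted serum, -0.17, -0.31, -0.15 and -0.36 in young serum, and -0.22, 0.23, 0.38 and 1.05 in saline. By this measure saline replicate 2 lay among the young serum libraries.

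**Figure D2:**
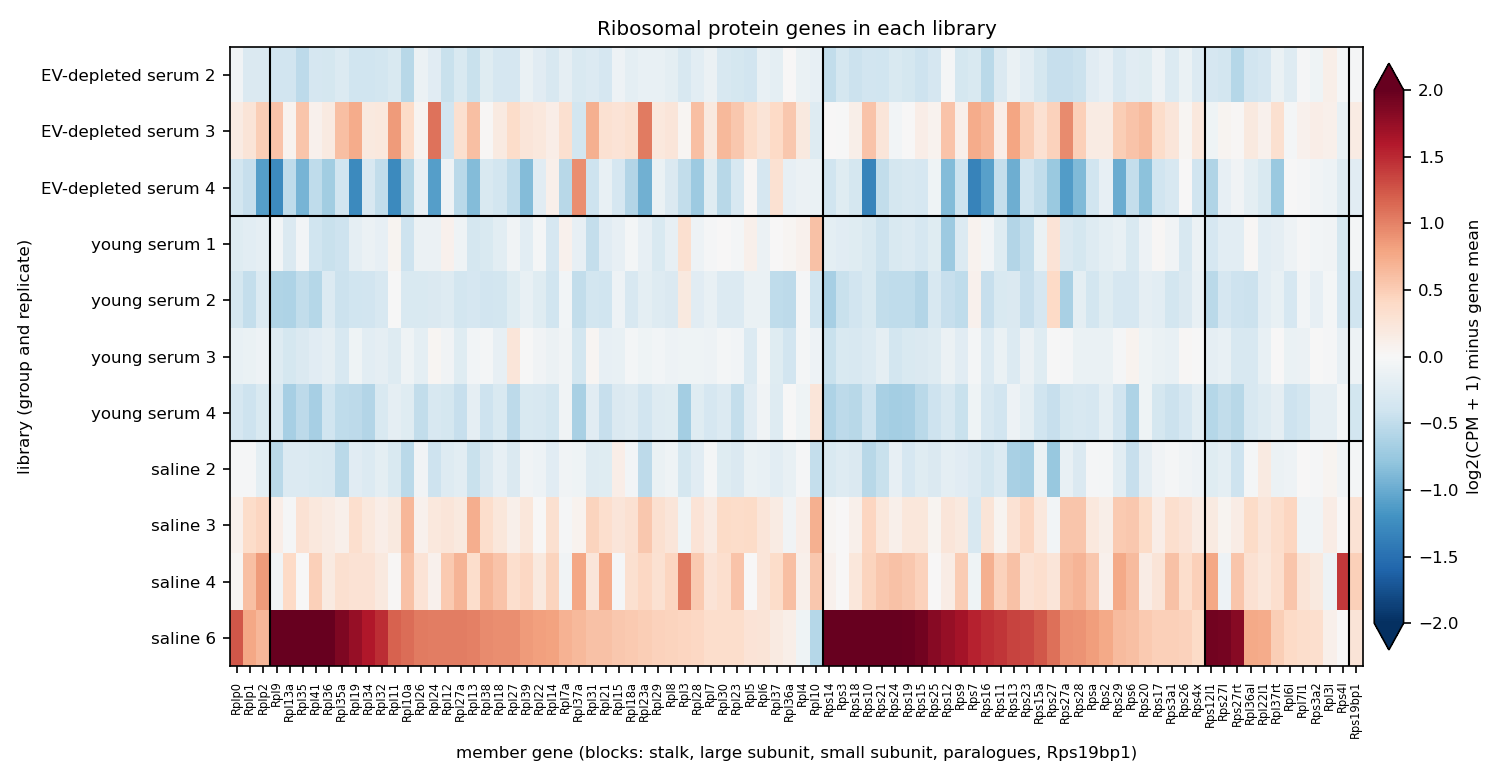
Heat map of log2(CPM + 1) minus the gene's mean (colour) for 86 of the 88 members that passed the filter (columns, in blocks by role) in each of the 11 libraries (rows: 3 EV-depleted serum, 4 young serum, 4 saline). Saline replicate 6 is red across most columns, EV-depleted serum replicate 3 and saline replicates 3 and 4 are mostly pale red, and the other libraries are mostly blue.

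The members moved together from library to library. The median Pearson correlation between pairs of the 76 tested core members was 0.81 over the 11 libraries and 0.80 without saline replicate 6. With the mean level, of which each member is a part, 73 of the 88 members had a correlation over 0.8. Short genes outside the rule, such as Sdhaf1 and Cox17, reached 0.98. Among the members Rps15a, of the small subunit, followed the mean level closely (0.99). Rpl10 (-0.07), Rpl4 (0.33), Rps4l (0.39), Rpl37a (0.42) and Rpl3l (0.47) followed it least. These values describe libraries that share groups, and they carry no test.

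A property of all genes moved with this level. Members are short: their median longest coding sequence was 453 bases, against 1398 bases for all tested genes. In each library the slope of the other genes' centred log2 values on log2 coding length was computed from 11713 genes outside the rule. It was 0.03, -0.07 and 0.13 in EV-depleted serum, 0.06, 0.11, 0.03 and 0.12 in young serum, and 0.00, -0.09, -0.04 and -0.28 in saline, in log2 units per doubling of length. Where the slope was negative, short genes were high, and the mean member level was then high: the correlation of level and slope was -0.96 over 11 libraries and -0.90 over 10 without saline replicate 6. After a loess correction of each library for coding length, fitted on genes outside the rule, the level of the 83 members with a coding length was -0.23, 0.30 and -0.44 in EV-depleted serum, -0.14, -0.16, -0.09 and -0.13 in young serum, against -0.19, 0.18, 0.13 and 0.76 in saline. Its range was again widest in saline. What sets the slope was not tested.

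**Figure D3:**
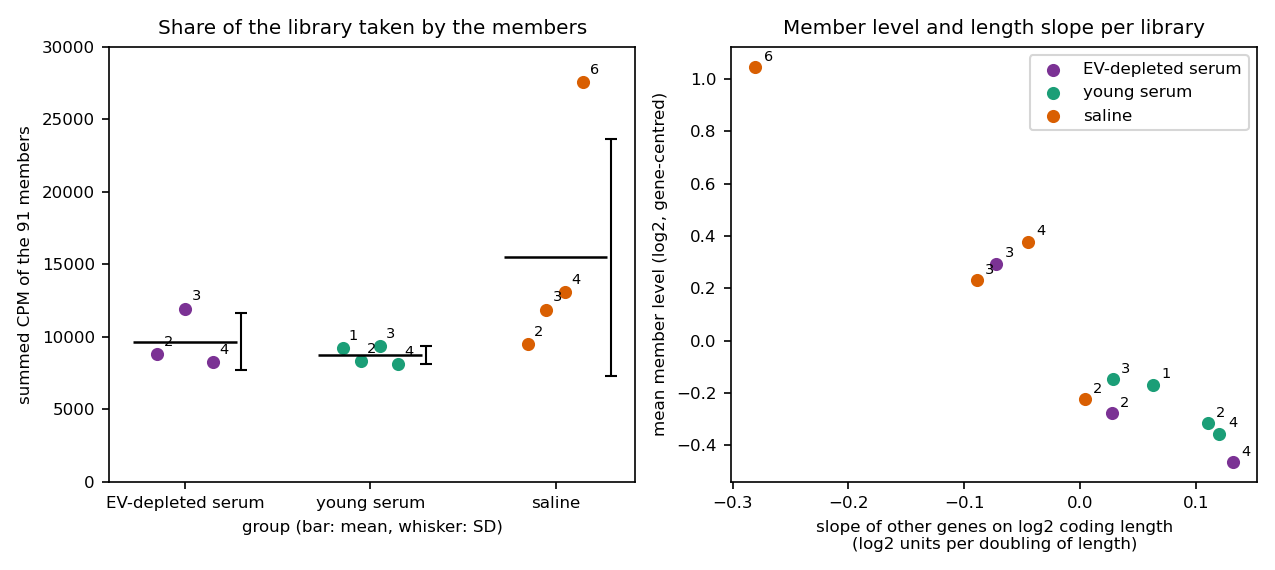
Left, summed CPM of the 91 members in each library by group, with the mean (bar) and SD (whisker) and the replicate number beside each point; saline replicate 6 is at 27558 CPM. Right, mean member level against the slope of other genes on log2 coding length for the same libraries, which fall along one descending line from saline replicate 6 (slope -0.28, level 1.05) to EV-depleted serum replicate 4 (0.13, -0.46).

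Saline replicate 6 was not high for every member alike. It was the highest of the 4 saline libraries for 67 of 88 members, and over 2-fold above the mean of the other 3 for 35 of them (39.8%, against 4.66% of all tested genes). The median fold was 1.62 for members and 0.84 for all genes. Small subunit members had a median fold of 2.498 (31 genes) and large subunit members of 1.58 (42 genes). The largest were Rps14 (8.22-fold), Rpl9 (7.86), Rpl13a (6.03) and Rps3 (5.38), and Rpl35, Rps18, Rpl36, Rpl41 and Rps27l were between 4.02 and 4.65-fold. Rps14, the small subunit protein tied to the 5q- form of anaemia in people, had 300.4, 384, 393 and 2951 CPM in saline replicates 2, 3, 4 and 6. Rpl9 had 11.9, 19.5, 16.7 and 126 CPM in saline replicates 2, 3, 4 and 6, and Rpl13a, a member also known from the interferon response, had 313, 373, 500.3 and 2382 CPM in saline replicates 2, 3, 4 and 6. Rpl4 (0.90-fold) and Rpl3l (1.05-fold) lay near the other saline libraries, and the Rpl10 row was at 0.43-fold. As a family Rpl10 was at 1.09-fold, while the folds of the Rps14 (8.14), Rpl9 (7.40) and Rpl13a (6.03) families were close to those of the rows. The fold was only loosely tied to coding length within the members (Spearman rho -0.20 over 83). Members with coding sequences under 400 bases had a median fold of 1.58, against 1.28 for other genes of that length; from 400 to 600 bases the medians were 2.34 and 1.09, and above 600 bases 1.298 and 0.797.

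**Figure D4:**
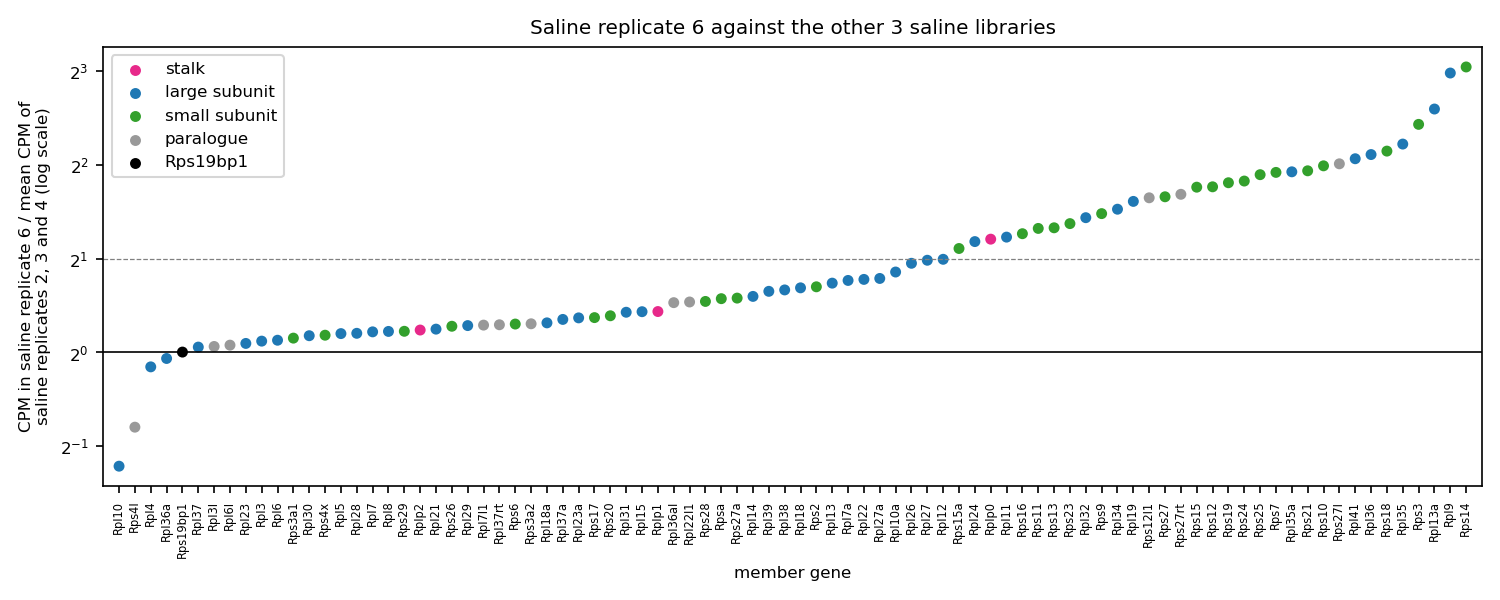
CPM in saline replicate 6 divided by the mean CPM of saline replicates 2, 3 and 4 (log axis) for 86 of the 88 tested members, sorted and coloured by role. The solid line marks equality and the dashed line a 2-fold excess; the values run from 0.43-fold (Rpl10) to 8.22-fold (Rps14).

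In muscle given young serum, 87 of the 88 tested members had a lower mean than in saline (52.5% of all genes did), with a median log2 fold change of -0.62 (a log2 difference on the log2(CPM + 1) scale), beside -0.02 for all 13187 genes tested. None passed the test: limma with Benjamini-Hochberg adjustment over all genes called 0 members and 0% of all genes, and the smallest adjusted p of a member was 0.180. At an unadjusted p under 0.05, 49 of the 88 were lower and 0 higher, against 11.4% of all genes lower. The values of both groups did not overlap for 17 members, all of them lower, against 6.08% of all genes lower and 6.09% higher. Of 1431 genes outside the rule with coding sequences under 600 bases, 282 were lower and 13 higher without overlap. At an unadjusted p under 0.05, 536 of those short genes were lower and 23 higher. Without saline replicate 6 the members' median was -0.38 and 85 members were below 0, and after the length correction it was -0.35 with 79 of 83 below 0. With both changes together the median was -0.18. The number of calls depended on single libraries and on their weights. With saline replicate 2 left out 10 members passed, among 251 genes in all. With limma's array weights, which down-weight variable libraries, 45 members passed together with many other genes, as counted under the processing below.

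The 3 stalk genes, whose proteins recruit the elongation factors, were all lower. Rplp1, at chr9:61913284-61914542, had 283, 414 and 250.5 CPM in EV-depleted serum, 299.7, 249, 317 and 260.5 in young serum, against 339, 448, 525 and 592 in saline. Every young serum library was below every saline library, and the log2 fold change was -0.73 ± 0.19 (SE; adjusted p = 0.180) by limma. Rplp0 had 736, 867 and 603 CPM in EV-depleted serum, 658, 609.7, 703 and 615 in young serum, against 763, 826, 802 and 1839 in saline, with -0.60 ± 0.24 (SE; adjusted p = 0.1996), and groups that did not overlap. Saline replicate 6 was the high library, and without it Rplp0 was at -0.30. Rplp2 had 83.1, 144 and 46.9 CPM in EV-depleted serum, 89.7, 84.3, 94.5 and 82.3 in young serum, against 88.6, 138, 185 and 162 in saline. There the groups overlapped at saline replicate 2, and the log2 fold change was -0.66 ± 0.30 (SE; adjusted p = 0.226).

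In the large subunit 41 of 42 tested members were lower in young serum (median -0.48). Of these, 18 were at an unadjusted p under 0.05, against 11.4% of all genes lower at that p. Rpl13a, with the lowest fold change, had 289.6, 400.3 and 267 CPM in EV-depleted serum, 309, 247, 298 and 239.8 in young serum, against 313, 373, 500.3 and 2382 in saline. Its log2 fold change of -1.17 ± 0.50 (SE; adjusted p = 0.212) became -0.51 without saline replicate 6. Rpl8, a protein at the heart of the subunit and a member with no near-identical copy, had 267, 363 and 252 CPM in EV-depleted serum, 274, 251, 286 and 258 in young serum, against 289.3, 365, 414 and 416 in saline, with no overlap between young serum and saline and -0.46 ± 0.14 (SE; adjusted p = 0.180). Rpl5 and Rpl11, which with 5S RNA bind MDM2 when ribosome assembly fails, had log2 fold changes of -0.27 ± 0.19 and -0.37 ± 0.40 (SE; adjusted p = 0.388 and 0.591 by limma). Rpl5 had 2.96, 5.69 and 4.28 CPM in EV-depleted serum, 4.57, 3.72, 3.30 and 3.43 in young serum, against 3.76, 5.77, 4.21 and 5.27 in saline. Rpl11 had 18.3, 41.8 and 8.82 CPM in EV-depleted serum, 23.7, 22.7, 18.9 and 20.1 in young serum, against 18.3, 26.3, 23.1 and 52.9 in saline, and saline replicate 6 and EV-depleted serum replicate 3 were its highest libraries. Without saline replicate 6 Rpl11 was at -0.07, and at 0.11 with the length correction as well. Rpl9 was at -0.88 ± 0.61 (SE; adjusted p = 0.388), and at -0.15 without saline replicate 6 (0.022 with the length correction as well). At the other end, Rpl10 was the only member above 0, at 0.03 ± 0.30 (SE; adjusted p = 0.961). Its row had 2.99, 2.75 and 3.10 CPM in EV-depleted serum, 5.73, 2.40, 3.17 and 4.30 in young serum, against 2.23, 6.34, 5.48 and 2.02 in saline, and its family was at -0.23. Rpl4 had 504, 637 and 515 CPM in EV-depleted serum, 588, 549, 543 and 521 in young serum, against 546, 607, 597 and 524 in saline, and a log2 fold change of -0.05 ± 0.10 (SE; adjusted p = 0.810).

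All 31 tested small subunit members were lower in young serum (median -0.71). Of these, 21 were at an unadjusted p under 0.05, against 11.4% of all genes lower at that p. Rpsa, the laminin receptor precursor, had 341, 448 and 305 CPM in EV-depleted serum, 334, 312, 365 and 318 in young serum, against 397, 465, 586 and 718 in saline. Young serum and saline did not overlap, and the log2 fold change was -0.67 ± 0.18 (SE; adjusted p = 0.180). Rps3a1 had 231, 328 and 222 CPM in EV-depleted serum, 266, 214, 252 and 206 in young serum, against 275, 349.9, 417 and 386 in saline, again without overlap, and -0.59 ± 0.16 (SE; adjusted p = 0.180). Rps26 had 101, 114 and 112 CPM in EV-depleted serum, 88.4, 90.01, 112 and 87.3 in young serum, against 105, 133, 141 and 153 in saline. Its group ranges overlapped only through young serum replicate 3, and the fold change was -0.48 ± 0.13 (SE; adjusted p = 0.180). Rps14 had the lowest fold change of all, -1.18 ± 0.57 (SE; adjusted p = 0.242), with 324, 235, 273 and 241 CPM in young serum, against 300.4, 384, 393 and 2951 in saline; without saline replicate 6 it was -0.42. Rps24 and Rps19, both mutated in Diamond-Blackfan anaemia in people, were at -1.10 ± 0.37 and -1.04 ± 0.37 (SE; adjusted p = 0.180 and 0.182 by limma). Rps24 had 158, 188 and 153 CPM in EV-depleted serum, 159, 137, 152 and 122 in young serum, against 174, 210.4, 293 and 799 in saline. Rps19 had 56.0, 72.2 and 57.5 CPM in EV-depleted serum, 59.3, 50.2, 58.2 and 45.3 in young serum, against 56.8, 84.5, 105 and 287 in saline, and saline replicate 2 lay within the young serum range. Saline replicate 6 was far the highest for both, and without it Rps24 was at -0.63 and Rps19 at -0.58. Rps27a, which is made as a fusion with ubiquitin, had 5.05, 14.97 and 2.85 CPM in EV-depleted serum, 5.82, 4.31, 7.20 and 5.498 in young serum, against 6.52, 11.2, 11.9 and 14.8 in saline, with -0.82 ± 0.37 (SE; adjusted p = 0.228). The Rps6 row had 6.92, 12.8 and 5.64 CPM in EV-depleted serum, 6.51, 6.36, 8.76 and 5.02 in young serum, against 5.77, 12.5, 13.4 and 13.0 in saline and -0.63 ± 0.29 (SE; adjusted p = 0.228); its family was at -0.57 ± 0.18 (adjusted p = 0.180) with no overlap between young serum and saline.

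Among paralogues and copies, 11 of 11 tested were lower in young serum (median -0.57). Of these, 6 were at an unadjusted p under 0.05, against 11.4% of all genes lower at that p. Rpl6l, a processed copy of Rpl6, had 33.3, 38.8 and 39.7 CPM in EV-depleted serum, 37.2, 31.5, 36.2 and 29.7 in young serum, against 37.3, 54.4, 59.4 and 53.2 in saline, with -0.57 ± 0.15 (SE; adjusted p = 0.180) and no overlap between young serum and saline. Rpl22l1, which can stand in for Rpl22 and regulates splicing, had 22.4, 30.3 and 23.0 CPM in EV-depleted serum, 24.5, 24.6, 25.5 and 23.7 in young serum, against 32.3, 34.0, 33.4 and 48.2 in saline. It was the one member whose values did not overlap with saline in either serum group, at -0.55 ± 0.14 (SE; adjusted p = 0.180). Its partner Rpl22 had 103, 139 and 103 CPM in EV-depleted serum, 117, 101, 114 and 96.7 in young serum, against 112, 121, 138 and 212 in saline. Rpl36al had 82.2, 123 and 94.2 CPM in EV-depleted serum, 109.8, 79.5, 86.2 and 86.4 in young serum, against 104, 141, 133 and 182 in saline, with -0.61 ± 0.18 (SE; adjusted p = 0.180). The Rps27l values were 51.6, 69.5 and 59.6 CPM in EV-depleted serum, 57.2, 52.4, 59.9 and 46.9 in young serum, against 57.8, 69.0, 62.1 and 253 in saline, and its fold change was -0.72 ± 0.38 (SE; adjusted p = 0.276), or -0.22 without saline replicate 6 (0.033 with the length correction as well). Rps27rt was at -0.90 ± 0.37 (SE; adjusted p = 0.2004), and at -0.47 without saline replicate 6. Rpl7l1, a homologue thought to act in ribosome assembly, had 30.4, 32.8 and 30.6 CPM in EV-depleted serum, 30.5, 29.6, 28.3 and 23.7 in young serum, against 31.1, 29.5, 37.2 and 39.9 in saline, with -0.28 ± 0.12 (SE; adjusted p = 0.219). Rpl3l was at -0.12 ± 0.09 (SE; adjusted p = 0.423). Rpl39l, known from testis, reached at most 0.260 CPM in any library, and Rpl32l 0.811 CPM; neither passed the filter.

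Summed by family, in young serum 84 of 84 families were lower than in saline, with a median of -0.62, quartiles of -0.76 and -0.44 and a range of -1.19 to -0.04. An unadjusted p under 0.05 was reached by 64 families, against 11.4% of all genes lower at that p, and 26 did not overlap, against 6.08% of all genes lower without overlap. Without saline replicate 6 the median of the families was -0.37, with 84 of 84 lower. No family passed limma's adjustment in either setting. The smallest adjusted p was 0.180 with all libraries and 0.319 without saline replicate 6. The Rps27 family was at -0.89 ± 0.37, although the Rps27 row alone was at -0.08 ± 0.38, and the Rpl17 family at -1.16 ± 0.50 (limma, adjusted p = 0.204 and 0.211).

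In muscle given EV-depleted serum, 87 of 88 members had a lower mean than in saline (50.4% of all genes did), with a median log2 fold change of -0.50. This comparison shares its 4 saline libraries with the one before, so both carry saline replicate 6. limma called 0 members and 0% of all genes, the smallest adjusted p being 0.371 (with array weights, 22 members and many other genes, as counted below). At an unadjusted p under 0.05, 17 members were lower and 0 higher, against 5.59% of all genes lower and 6.49% higher. Of the 1431 short genes outside the rule, 177 were lower and 30 higher at that p. The groups did not overlap for 1 member, Rpl22l1, which was lower, against 4.03% of all genes lower and 3.39% higher without overlap. Without saline replicate 6 the median was -0.27, and without saline replicates 4 and 6 together it was -0.14. By family, 84 of 84 were lower (median -0.54), 26 at an unadjusted p under 0.05, against 5.59% of all genes lower. Without saline replicate 6, 83 of 84 families were lower (median -0.30), and none passed limma's adjustment (smallest adjusted p 0.358).

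The 4 core members with the smallest p in EV-depleted serum against saline were Rplp1 at -0.59 ± 0.21 (SE; adjusted p = 0.403), Rpsa at -0.55 ± 0.19 (SE; adjusted p = 0.403), Rpl12 at -0.69 ± 0.26 (SE; adjusted p = 0.404) and Rps3a1 at -0.46 ± 0.18 (SE; adjusted p = 0.404), all by limma. For Rplp1, Rpsa and Rps3a1, EV-depleted serum replicate 3 lay within the saline range. Rpl12, which sits at the base of the stalk, had a low row, with 1.77, 1.89 and 2.52 CPM in EV-depleted serum, 2.997, 2.14, 2.60 and 1.94 in young serum, against 2.16, 3.46, 4.40 and 6.64 in saline, and there replicate 4 lay within the saline range. Rpl22l1 was at -0.53 ± 0.16 (SE; adjusted p = 0.371). The lowest fold changes were those of Rps12l1, a processed copy whose whole sequence matches part of the Rps12 coding sequence without a difference, at -1.005 ± 0.39 (SE; adjusted p = 0.404), and Rps14 at -0.999 ± 0.61 (SE; adjusted p = 0.467). Without saline replicate 6 they were at -0.58 and -0.24. Rps12l1 had 55.9, 66.1 and 45.8 CPM in EV-depleted serum, 55.3, 48.4, 62.2 and 47.0 in young serum, against 59.1, 80.3, 121 and 272 in saline. Highest were Rpl37, at 0.04 ± 0.19 (SE; adjusted p = 0.933), and Rpl36a. The Rpl36a row had 1.64, 2.78 and 1.32 CPM in EV-depleted serum, 1.67, 0.820, 1.004 and 1.61 in young serum, against 1.36, 1.49, 2.95 and 1.85 in saline, with groups that overlapped throughout.

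Between EV-depleted serum and young serum, which differ in whether EVs were left in, the members' median difference was smaller than in either comparison with saline. 67 of 88 were higher and 21 lower in EV-depleted serum, with a median log2 fold change of 0.12, while 48.7% of all genes were lower. limma called 0 members and 0% of all genes, the smallest adjusted p being 0.999983. At an unadjusted p under 0.05 there was 1 higher member, Rpl37, and 0 lower, against 1.75% of all genes higher. No member's groups were apart, against 4.16% of all genes higher without overlap and 1.96% lower. Rpl37, a zinc-binding protein of the large subunit, had 9.34, 14.5 and 13.5 CPM in EV-depleted serum, 10.9, 7.29, 8.98 and 8.87 in young serum, against 9.27, 12.2, 14.3 and 12.4 in saline. Its log2 fold change was 0.42 ± 0.19 (SE), and both groups overlapped; its copy Rpl37rt had 82.3, 113 and 53.7 CPM in EV-depleted serum, 79.8, 80.8, 90.5 and 79.8 in young serum, against 82.6, 115, 114 and 127 in saline, and their family was at 0.01 ± 0.20. Rpl37a was at 0.50 ± 0.31 (SE), with 20.7, 19.6 and 50.2 CPM in EV-depleted serum, 22.9, 18.003, 19.8 and 16.1 in young serum, against 24.1, 27.1, 44.7 and 40.8 in saline. Replicate 4 was the high one of the 3 EV-depleted serum libraries, and without it Rpl37a was at 0.08. Rps26 was at 0.21 ± 0.14 (SE) and Rpl36a at 0.34 ± 0.24 (SE), or 0.14 without EV-depleted serum replicate 3. Lowest were Rps7, with 5.73, 13.0 and 2.29 CPM in EV-depleted serum, 7.79, 7.89, 7.13 and 6.90 in young serum, against 5.89, 5.70, 6.83 and 23.2 in saline, and Rps27 at -0.29 ± 0.41 (SE). Rps27 was at -0.65 without EV-depleted serum replicate 3 and at -0.05 without replicate 4. The number of members below 0 was 13, 59 and 4 when EV-depleted serum replicates 2, 3 and 4 were left out in turn, and the median was -0.07 without replicate 3. After the length correction the median was 0.02, with 34 of 83 members below 0.

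**Figure D5:**
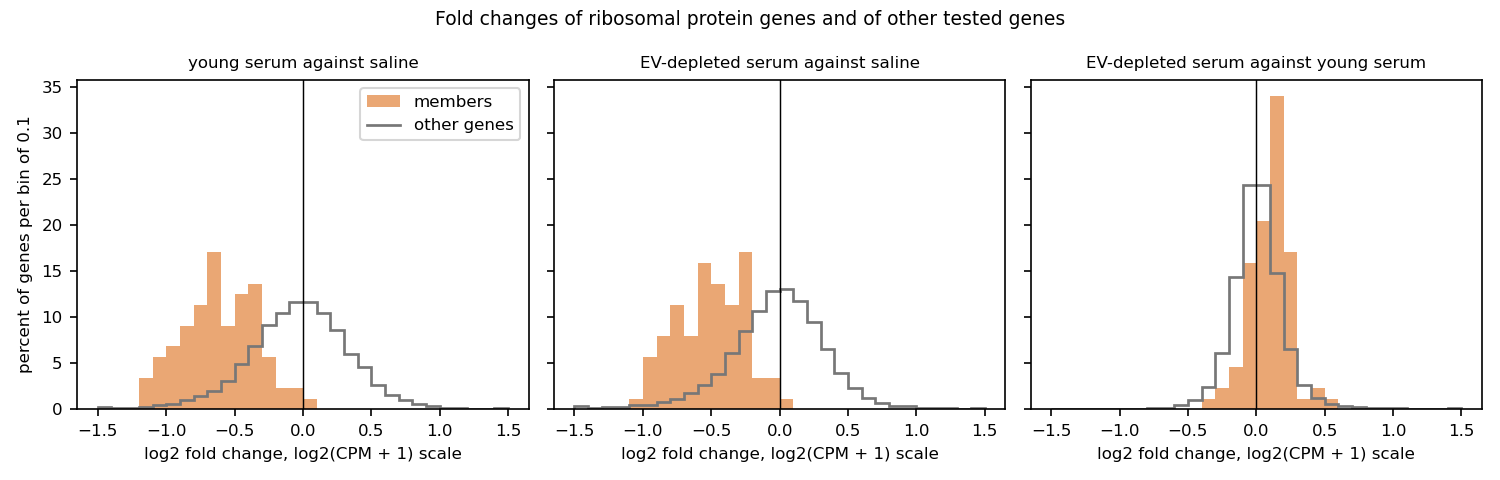
Share of genes per bin of log2 fold change (width 0.1, log2(CPM + 1) scale) for the 88 members (filled) and the other tested genes (line) in the 3 comparisons; values beyond the axis ends are in the end bins. The members lie left of 0 for both serums against saline (median -0.62 for young serum and -0.50 for EV-depleted serum), and in EV-depleted serum against young serum they straddle it (median 0.12).

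Ratios of a paralogue to its partner within a library do not depend on how the library was scaled. 4 pairs had both genes at 1 CPM or more on average, which gave 12 tests over 3 comparisons. The Rpl3l to Rpl3 ratio was 68.6, 51.7 and 68.0 in EV-depleted serum, 37.1, 41.5, 52.0 and 74.8 in young serum, against 67.7, 58.1, 21.6 and 38.1 in saline. With the near-identical row added to Rpl3 it was 10.2, 12.1 and 8.19 in EV-depleted serum, 7.58, 9.92, 10.1 and 13.5 in young serum, and 9.85, 10.2, 3.05 and 5.54 in saline. The ranges overlapped between groups, and Rpl3l stood above Rpl3 in each library on both counts. Rpl22l1 to Rpl22 was 0.218, 0.218 and 0.222 in EV-depleted serum, 0.209, 0.243, 0.223 and 0.245 in young serum, against 0.287, 0.281, 0.242 and 0.227 in saline. EV-depleted serum lay below saline without overlap, by -0.23 ± 0.08 on the log2 scale (two-sided exact permutation test, p = 0.0571, the smallest that 3 against 4 libraries allow; adjusted p = 0.457 over the 12). These ratios leave out a near-identical row of Rpl22l1 itself, which averaged 29.3 CPM alone and 39.0 CPM as a family. With that row added the groups overlapped: the ratio of EV-depleted serum replicate 4 (32.4 to 103 CPM) was above that of saline replicate 6 (64.2 to 212 CPM). Rpl36al to Rpl36a was 44.3 to 71.2 in EV-depleted serum, 53.5 to 96.9 in young serum and 45.2 to 98.5 in saline. With the near-identical rows added to Rpl36a it was 1.64, 1.81 and 1.701 in EV-depleted serum, 1.88, 1.84, 1.85 and 2.29 in young serum, and 1.94, 2.05, 1.37 and 2.26 in saline. By that sum EV-depleted serum lay below young serum without overlap, by -0.19 ± 0.09 on the log2 scale (two-sided exact permutation test, p = 0.0571, the smallest possible; adjusted p = 0.343 over the 12). Rps27l to Rps27 was 22.3 to 74.9 in EV-depleted serum, 17.9 to 40.1 in young serum and 24.6 to 75.03 in saline. With Rps27rt added to the denominator the Rps27l ratio was 0.428 to 0.525 in EV-depleted serum, 0.446 to 0.509 in young serum and 0.288 to 0.530 in saline. None of the 12 ratios passed the exact test after adjustment, the smallest adjusted p being 0.457. With so few libraries none could have. The smallest p the exact test allows is 0.0286 for 4 against 4 libraries and 0.0571 for 3 against 4, too large to pass over 12 tests. The tests therefore cannot show whether a ratio differed. For young serum against saline the differences were 0.22 ± 0.43 for Rpl3l, -0.17 ± 0.10 for Rpl22l1, -0.04 ± 0.32 for Rpl36al and -0.68 ± 0.42 for Rps27l (log2, SE, 4 and 4 libraries). With near-identical rows added to the partner they were 0.65 ± 0.45 for Rpl3l, 0.06 ± 0.18 for Rpl36al and 0.17 ± 0.20 for Rps27l, so the values of Rpl36al and Rps27l turned sign with the summing. Rpl22 has no such row in the table, and the row of Rpl22l1 itself was not added in these tests.

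Subunits that carry other names were read beside the members. Fau, whose product is split into ubiquitin-like FUBI and the small subunit protein eS30, had 7.77, 18.3 and 5.29 CPM in EV-depleted serum, 9.10, 7.77, 11.7 and 6.63 in young serum, against 7.84, 14.4, 20.9 and 50.04 in saline, and over the 11 libraries it had the highest correlation with the mean member level of any gene at 10 CPM or more outside the rule (0.99). Its log2 fold change in young serum against saline was -1.04 ± 0.48 (SE; adjusted p = 0.229), and -0.58 without saline replicate 6. Rack1, a scaffold on the small subunit head, had 269, 352 and 248 CPM in EV-depleted serum, 295, 280.3, 295 and 263 in young serum, against 299.96, 323, 314 and 993 in saline, with -0.56 ± 0.32 (SE; adjusted p = 0.306) for young serum against saline. Saline replicate 6 was far the highest, and without it Rack1 was at -0.14. The next 5 genes by likeness were Sdhaf1 (0.98), Tmem60 (0.98), Mrpl52 (0.98), Cox17 (0.98) and Naa10 (0.98). All 6 have short coding sequences, from 189 to 705 bases.

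Other genes of the translation machinery were read as lists, and limma called 0 genes of any of them after adjustment. Of 31 initiation factor genes 17 were lower and 14 higher in young serum than in saline (median -0.03), and of 10 elongation and termination factor genes 6 were lower and 4 higher. Eif3c, a scaffold subunit of initiation factor eIF3, had 144, 141 and 141 CPM in EV-depleted serum, 156, 161, 148 and 168 in young serum, against 137, 132, 134 and 133 in saline. Young serum lay above saline without overlap, at 0.23 ± 0.08 (SE; adjusted p = 0.180). Eif5a, a hypusinated elongation factor, was at -0.34 ± 0.11 (SE; adjusted p = 0.180), and Eef1b2, which recharges eEF1A with GTP, at -0.75 ± 0.25 (SE; adjusted p = 0.180), or -0.45 without saline replicate 6. Eef1b2 had 108, 138 and 96.8 CPM in EV-depleted serum, 107, 94.8, 109 and 86.8 in young serum, against 129, 125, 153 and 313 in saline. The elongation factor eEF1A is encoded by Eef1a1 in most tissues and by Eef1a2 in mature muscle. Eef1a1 had 274, 215 and 283 CPM in EV-depleted serum, 372, 295, 293 and 186 in young serum, against 307, 310.4, 773 and 522 in saline, with -0.67 ± 0.29 (SE; adjusted p = 0.215), or -0.40 without saline replicate 4. Eef1a2 had 2109.7, 2207 and 1732 CPM in EV-depleted serum, 2027, 1964, 2292 and 2282 in young serum, against 2086, 2210.5, 2015 and 2271 in saline, with groups that overlapped. Eef2, the translocase, had 1592, 1971 and 1439 CPM in EV-depleted serum, 1822, 1733, 1852 and 1865 in young serum, against 1688, 1670.5, 1635 and 1453 in saline, and young serum lay just above saline, at 0.18 ± 0.11 (SE; adjusted p = 0.349). All adjusted p in this paragraph are limma's for young serum against saline.

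Other messages with a TOP motif were lower in 11 of 16 cases in young serum (median -0.23), and Tpt1 among them was at -0.55 ± 0.24 (SE; adjusted p = 0.216). All 12 genes that host small nucleolar RNAs were lower in young serum (median -0.48) and in EV-depleted serum (median -0.41) than in saline. Gas5, one of them and itself a TOP message, had 15.3, 19.6 and 19.1 CPM in EV-depleted serum, 18.1, 13.2, 14.5 and 14.9 in young serum, against 16.6, 27.1, 29.3 and 20.7 in saline, at -0.57 ± 0.18 (SE; adjusted p = 0.180) in young serum. Genes of ribosome assembly (15 of 32 lower, median 0.01) and of RNA polymerase I (6 of 15 lower, median 0.04) lay around 0. Rrp12, an export factor of pre-ribosomes, was at 0.43 ± 0.15 (SE; adjusted p = 0.180), and Znrd1, a polymerase I subunit, at -0.48 ± 0.16 (SE; adjusted p = 0.180). mTOR pathway genes were higher in 11 of 14 cases in young serum (median 0.39). Larp1, the repressor that binds TOP messages, had 159, 158 and 201 CPM in EV-depleted serum, 209.8, 187, 179 and 219.6 in young serum, against 158, 136, 132 and 92.9 in saline. Each young serum library was above each saline library, and the log2 fold change was 0.63 ± 0.16 (SE; adjusted p = 0.180) in young serum and 0.43 ± 0.17 (SE; adjusted p = 0.404) in EV-depleted serum, by limma, the second being 0.27 without saline replicate 6. The coding length of genes differs between these lists, and its part in their medians was not tested. 1431 genes outside the rule with coding sequences under 600 bases were read as a yardstick. Their median was -0.34 for young serum against saline, with 1212 lower, and -0.22 for EV-depleted serum against saline, with 1134 lower.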

How the data were processed

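The deposited table gives CPM per gene and library. The authors made it by sequencing the RNA, with STAR, FastQC and DESeq2 on build mm10 listed, without role or order, per the submitters' processing notes; the counting tool, its strand setting and its treatment of reads that match several genes are not given in the sources used here. Each column of CPM summed to 1000000 apart from an offset of 0.0001 per value. A second deposited table holds TPM, made by the authors from the CPM and the genomic span of each gene; it served here for gene positions only.

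Values were analysed as log2(CPM + 1) for the 13187 genes that reached 1 CPM in 3 libraries or more. limma 3.58.1 (R 4.3.3, empirical Bayes with a mean trend) fitted all 11 libraries by group, with Benjamini-Hochberg adjustment over all genes and a threshold of 0.05. A fold change on this scale understates the change of low genes. No count test was run, because only 75 to 79% of low values came out as whole reads. Near-identical copies were found with BLAST 2.17.0 among GENCODE M21 transcripts (95% identity over 80% of the coding sequence), and coding lengths are those of the longest annotated coding sequence there, in place of the protein lengths first planned. Coordinates are mm10, counted from 1. Paralogue ratios were compared by exact permutation tests (scipy 1.17.1), adjusted over 12 tests. Statistics were tested on simulated data. Alternatives were other pseudocounts and filters, other scaling, array weights, a replicate block, a coding-length correction, leaving out each library, and family sums.

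Members and gene lists were chosen with earlier results of these data known. Genes named are the paralogues and their partners, a set of well-known members, the 4 core members with the smallest p and the 2 highest and 2 lowest fold changes per comparison, the 3 most and least variable core members, the gene with the smallest p in each list of translation genes together with well-known ones, and the 6 most alike genes outside the rule. Others were named after their values were seen. A few members and 1 related gene are not reported by name here.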

Additional observations from a re-analysis of the deposited data

Results flagged for a closer look

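In 23 of the 88 tested members 1 saline library lay far from the other 3 by Dixon's gap test, and in 4 members 1 young serum library did. Chance flags about 1 in 20 groups, but the members moved together, so their number cannot be read against that rate. In 18 of the 23 the library was saline replicate 6, at the high end, which also held for 3.11% of the other tested genes. Among the members named here, saline replicate 6 had 2951 CPM of Rps14, 2382 CPM of Rpl13a, 1839 CPM of Rplp0 and 1502 CPM of Rps3. It had 1164 CPM of Rpl41, 847 CPM of Rps18, 492 CPM of Rpl36, 253 CPM of Rps27l and 246 CPM of Rpl35. For lower genes it had 126 CPM of Rpl9, 48.2 CPM of Rpl22l1 and 23.2 CPM of Rps7. Saline replicate 2 was far below the other saline libraries for Rpl6 (81.2 CPM) and Rps6 (5.77 CPM). Young serum replicate 3 was far above the other young serum libraries for Rps26 (112 CPM). The same saline replicate 6 held the highest slow fibre and red cell marker sums of all 11 libraries, and their part in these values was not tested.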

How the results depend on the processing

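The members' medians against saline were below 0 under every alternative run, while the number of calls was not stable. With array weights 45 members and 3441 genes passed for young serum against saline, 22 members and 1794 genes for EV-depleted serum against saline, and 24 genes between the serums. Leaving out single libraries gave 0 to 10 members and 0 to 251 genes for young serum, the highest without saline replicate 2, and 0 to 5 genes for EV-depleted serum. For EV-depleted serum against saline, 3 genes passed with a 10 CPM filter, 2 without saline replicates 4 and 6, and 3 with the coding-length correction without saline replicate 6, a setting chosen after seeing the data that also put the young serum median at -0.18. By family without saline replicate 6, also chosen after seeing the data, 1 gene passed for young serum and 2 for EV-depleted serum. Between the serums, members below 0 numbered 34 after the length correction and 9 by family, a summing also chosen after seeing the data, and 4 to 59 without single libraries.

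Some fold changes turned sign. Rpl10 in young serum was at -0.46 with array weights, -0.037 without saline replicates 4 and 6, -0.016 with the length correction without saline replicate 6, -0.23 by family, -0.199 by family without saline replicate 6 and -0.17 to 0.25 without single libraries. Rpl37 in EV-depleted serum was at -0.21 with array weights, -0.38 by family, -0.31 by family without saline replicate 6 and -0.075 to 0.22 without single libraries. With the length correction and without saline replicate 6, Rpl11 (0.11), Rpl9 (0.022) and Rps27l (0.033) were above 0 in young serum, against -0.37, -0.88 and -0.72 as deposited. Rps27 between the serums was at 0.16 by family. The cause was not tested.

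Same-numbered libraries did not pair: their deviations correlated at -0.28 to 0.30. With the replicate block 0 members passed, 6 genes passed for EV-depleted serum against saline and the medians were -0.40, -0.27 and 0.13. Rpl10 was then at -0.34 in young serum. No paralogue ratio passed with the block, and with so few pairs of libraries none could have. Depth is read from value steps only, and rows under 1 CPM were not tested.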

Other observations

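The proteins of the mitochondrial ribosome, which translates the messages of the mitochondrial genome, are encoded by separate nuclear genes. Of 83 tested genes, 81 had a lower mean in young serum than in saline (median log2 fold change -0.36) and 70 in EV-depleted serum than in saline (median -0.16). Between EV-depleted and young serum 3 were lower and 80 higher (median 0.20). limma called 0 of them in any comparison after adjustment over all genes, and 41 were lower in young serum at an unadjusted p under 0.05, against 11.4% of all genes. In 27 the young serum and saline libraries did not overlap, against 6.08% of all genes lower without overlap. Between the serums 15 were higher in EV-depleted serum without overlap, against 4.16% of all genes. The comparisons with saline share its 4 libraries.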
